A study of Rattus norvegicus with 6 samples.

Results

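The miRNAs described here are the 5 array entries for rno-miR-208a-3p, rno-miR-208a-5p, rno-miR-208b-3p, rno-miR-499-5p and rno-miR-499-3p, the miRNAs carried by 3 myosin heavy chain genes of the rat. They were chosen by name out of 758 miRNAs on the array, which also carries probes for miR-208b-5p, the other strand of miR-208b. The samples were total RNA of left ventricular myocardium, the wall of the main pumping chamber, from male Wistar rats, an outbred laboratory strain without a stated genetic alteration. The study set 3 samples from rats kept for 20 weeks on a high-fat diet against 3 from rats kept on normal chow for the same time. Each sample was hybridised to 1 single-colour Agilent array, on which a fluorescent dye reports how much of a miRNA bound to its probes. The age of the rats and the composition of the diets were not given in the labels. Nothing stated that the 3 samples of a diet were separate animals, so p-values here rest on the spread among these 6 samples, part of which may be technical.

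A miRNA is cut from a hairpin-shaped precursor as a short RNA that lowers the output of messenger RNAs, which it recognises mainly through its seed, the bases near its 5′ end. miR-208a, miR-208b and miR-499 lie in introns of Myh6, Myh7 and Myh7b and are made together with their host transcripts. Myh6 encodes the fast alpha and Myh7 the slow beta myosin heavy chain, the motor proteins of heart muscle. In the adult rodent ventricle the alpha form prevails, and in models of cardiac stress or low thyroid hormone the beta form and miR-208b increase. Studies in mice place miR-208a upstream of the beta gene and of Myh7b with miR-499.

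The mature sequences are shown because 3 of the 5 miRNAs share nearly the same seed and because a pair of them differs at few bases, which matters for a hybridisation measurement. Capitals mark the seed, bases 2 to 8, and the sequences are those of RefSeq for the rat assembly GRCr8, in which all 5 were found.
rno-miR-208a-3p: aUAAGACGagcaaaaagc
rno-miR-208b-3p: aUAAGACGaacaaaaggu
rno-miR-499-5p: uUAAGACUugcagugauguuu
rno-miR-208a-5p: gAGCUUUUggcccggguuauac
rno-miR-499-3p: aACAUCACagcaagucugugcu
The seed UAAGACG of miR-208a-3p and miR-208b-3p occurred in 2 of the 724 rat mature miRNAs of this table. Bases 2 to 7, UAAGAC, were shared by 3 of 724, which were miR-208a-3p, miR-208b-3p and miR-499-5p. miR-208a-3p and miR-208b-3p were identical at 15 of 18 bases (83.3%), the substitutions being G10A, A16G and C18U, counted from the 5′ end of miR-208a-3p and with its base first. miR-499-5p matched miR-208a-3p at 10 of its 18 bases and differed from it in the seed by G8U.

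The precursors are shown to place both strands of each hairpin, with the mature arms in capitals.
Mir208a: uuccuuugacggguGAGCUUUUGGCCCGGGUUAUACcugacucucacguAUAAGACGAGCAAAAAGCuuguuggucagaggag
Mir208b: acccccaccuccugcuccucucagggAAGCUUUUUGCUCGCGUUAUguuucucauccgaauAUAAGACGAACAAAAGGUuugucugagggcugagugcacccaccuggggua
Mir499a: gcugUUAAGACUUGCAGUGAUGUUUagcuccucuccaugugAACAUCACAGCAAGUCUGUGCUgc
In GRCr8, Mir208a lay at chr15:32395552-32395634 on the minus strand, within the span of Myh6 (chr15:32388102-32413663, same strand). Mir208b lay at chr15:32421615-32421726 on the minus strand, within the span of Myh7 (chr15:32416525-32439851, same strand). The hairpins were 25980 bases apart, and 2861 bases separated the host genes. Mir499a lay at chr3:164570612-164570676 on the plus strand, within the span of Myh7b (chr3:164537211-164582441, same strand). In Mir208a and Mir208b the arm with the shared seed is the 3′ arm, and in Mir499a it is the 5′ arm.

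All 5 miRNAs were well above background on 6 of 6 arrays. miR-208b-5p, the partner strand of miR-208b-3p and not among the 5, was well above background on 0 of 6 arrays, so that no strand ratio was formed for Mir208b. In the order of probe brightness miR-499-5p came first, at rank 22 to 29 among the 758 miRNAs, and miR-208a-3p followed at rank 82 to 90. miR-208b-3p ranked 127 to 192 on high-fat and 109 to 116 on chow arrays. miR-208a-5p ranked 171 to 189 and miR-499-3p ranked 222 to 300. These ranks order the signals of different probes, which bind with different strength, and do not order the amounts of the miRNAs.

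Before scaling, signal was brighter on the high-fat diet on average: the 75th percentile of signal was 415, 532 and 561 on high-fat and 359, 424 and 376 on chow arrays. Levels are therefore given as log2 of the signal over the array's own 75th percentile, taken over 757 probes well above background on all 6 arrays. The arrays correlated across miRNAs at 0.990 to 0.996. Chow replicates 2 and 3 were on slide 2 and the other 4 arrays on slide 1. The stringency ratio, by which the scanner software grades the hybridisation from spike-ins, was 1.94, 0.974 and 1.55 on high-fat and 3.82, 4.19 and 3.44 on chow arrays, a gap between the diets whose part in the results below was not tested. Summed scaled signal of the 5 cardiac muscle markers, 3 of which are miR-208a-3p, miR-208b-3p and miR-499-5p, was 167 to 201 on high-fat and 212 to 216 on chow arrays. The sum is linear and led by the brightest markers, miR-1-3p and miR-133a-3p, with mean scaled log2 signals of 7.06 and 5.67 on chow. Those of miR-499-5p, miR-208a-3p and miR-208b-3p were 4.80, 0.81 and -0.24. Summed scaled signal of the 3 erythroid markers was 13.8 to 20.2 on high-fat and 9.04 to 11.1 on chow arrays. Its part in the results was not tested. Of the 2 skeletal muscle markers, miR-206-3p was detected above background on 6 arrays and miR-206-5p on 0. Of the 2 liver markers, miR-122-3p was detected on 2 arrays and miR-122-5p on 0.

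miR-208b-3p, from the beta myosin gene, had a lower scaled signal on all 3 high-fat arrays than on any chow array, but the difference did not pass the adjusted test. Its scaled log2 signal was -0.90, -1.99 and -0.71 on high-fat arrays 1 to 3 and -0.28, -0.19 and -0.24 on chow arrays 1 to 3. Each high-fat array lay below every chow array, high-fat replicate 2 far below the rest, while the chow arrays lay close together. The means were -1.20 ± 0.69 on the high-fat diet and -0.24 ± 0.05 on chow (SD, n = 3 each). The log2 difference was -0.97 ± 0.31 (SE), a 1.95-fold lower signal, with a limma adjusted p of 0.297 and a 95% interval of -1.68 to -0.25 before adjustment. The limma fit assumes the same spread in both diets, whereas the SDs were 0.69 and 0.05. The SE, interval and limma p-values of miR-208b-3p rest on that assumption. Among 425 miRNAs tested, miR-208b-3p included, 1.18% differed by at least as much in either direction. In bulk tissue, the part of cardiomyocyte number in this difference was not tested. Of the other cardiac muscle markers, miR-208a-3p differed by -0.04, miR-499-5p by -0.19, miR-1-3p by -0.22 and miR-133a-3p by -0.37.

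Without high-fat replicate 2 the log2 difference of miR-208b-3p was -0.57 (limma adjusted p = 0.281), and without any other array it was between -1.21 and -0.94. With slide as a block it was -0.92 (limma adjusted p = 0.458), and it was the same within slide 1, where the adjusted p was 0.491 and the lone chow array was assumed to vary like the high-fat arrays. With no scaling the arrays overlapped, since high-fat replicate 3 then lay within the chow values, and the log2 difference was -0.60. With normexp background correction and the same scaling it passed, at -0.79 (limma adjusted p = 0.0400), the only one of 25 alternative settings in which it did. That setting called more miRNAs in general. In it 8 of 425 passed and 142 had an unadjusted limma p below 0.05, against 2 and 50 in the setting used here.

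**Figure D1:**
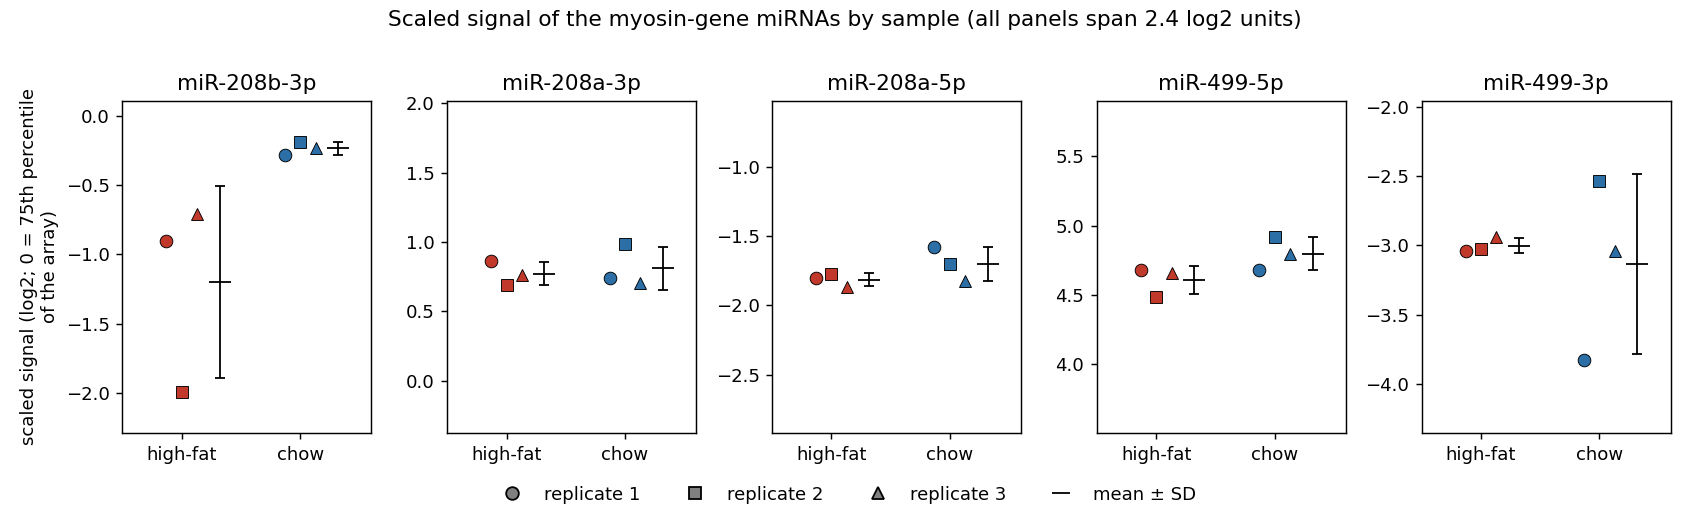
Scaled log2 signal of each miRNA (vertical axis, 0 at the 75th percentile of the array) on the 3 high-fat and 3 chow arrays, with the mean and SD of each diet. Every panel spans the same height, and miR-208b-3p is the panel with all high-fat arrays clearly below all chow arrays, at -1.20 ± 0.69 against -0.24 ± 0.05.

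All 3 probes of miR-208b-3p gave the pattern. On probe 3, the brightest and the one used above, the unscaled signal was 222, 134 and 342 on high-fat and 295, 373 and 320 on chow arrays. Probe 1 read 138, 90.0 and 220 on high-fat and 183, 232 and 201 on chow arrays. Probe 2 read 126, 84.5 and 201 on high-fat and 169, 220 and 187 on chow arrays. High-fat replicate 2 was the dimmest array on each probe, and chow replicate 2 the brightest. After scaling the log2 differences were -0.91 ± 0.29, -0.94 ± 0.28 and -0.97 ± 0.30 (SE) for probes 1 to 3, and on each probe the diets did not overlap. Probes of 1 miRNA read the same RNA and are not replicates of the diet. Spots of a probe on 1 array varied by 2.11% to 8.88% (coefficient of variation, median 5.64%), which covers the noise between spots and not that between arrays.

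**Figure D2:**
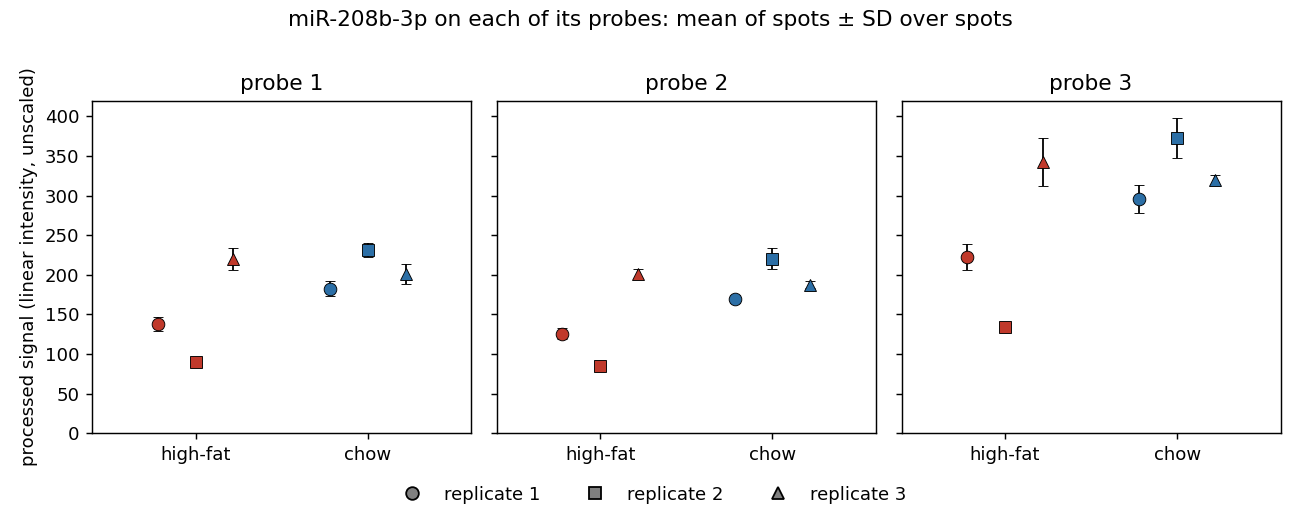
Unscaled processed signal (linear intensity) of miR-208b-3p on each of its 3 probes by array, with error bars for the SD over spots of that probe. High-fat replicate 2 is lowest on every probe (134 on probe 3), and high-fat replicate 3 lies among the chow arrays before scaling.

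The spread of miR-208b-3p differed between the diets in size. Its SD over high-fat arrays, 0.69, was exceeded by 3 of 425 miRNAs, whose median SD was 0.13, whereas its SD over chow arrays, 0.05, was exceeded by 378 of 425. High-fat replicate 2 lay 1.19 log2 units below the mean of the other high-fat arrays for miR-208b-3p, the lowest such value of the 425 miRNAs. miR-190a-3p (-1.06), miR-190a-5p (-0.92) and miR-26b-5p (-0.76) came next. The deviation was taken for this array only, which is the lowest of miR-208b-3p, so that the rank of miR-208b-3p was partly fixed by the choice. The same deviation was -0.18 for miR-499-5p, -0.12 for miR-208a-3p, -0.03 for miR-499-3p and 0.06 for miR-208a-5p. Among the 388 of 425 miRNAs with a RefSeq sequence, the array deviated more for those poor in G and C. The median was -0.15 over 72 miRNAs under 40% G+C and 0.01 over the 316 at 40% or more. miR-208b-3p and miR-499-5p both hold 33.3% G+C, and miR-208a-3p holds 38.9%. High-fat replicate 2 also had the lowest stringency ratio of the 6 arrays, 0.974. The part of base composition or of hybridisation in the low value of miR-208b-3p was not tested.

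**Figure D3:**
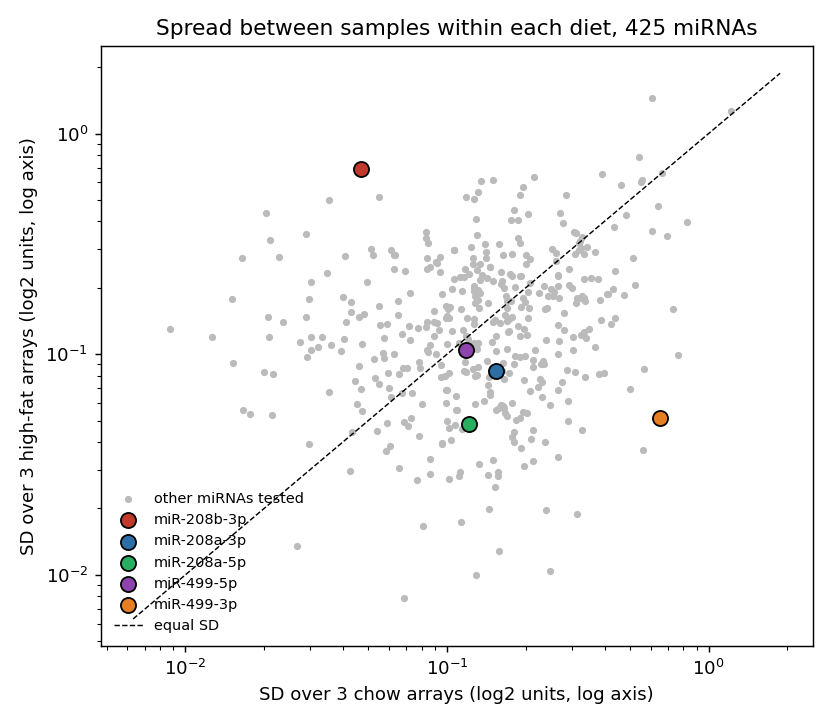
SD over the 3 high-fat arrays (vertical axis) against SD over the 3 chow arrays (horizontal axis), both in log2 units on log axes, for the 425 tested miRNAs. miR-208b-3p lies high on the left, with an SD of 0.69 on the high-fat diet and 0.05 on chow, and miR-499-3p lies low on the right, at 0.05 on the high-fat diet and 0.65 on chow.

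miR-208a-3p, from the alpha myosin gene, had about the same scaled signal on both diets. Its scaled log2 signal was 0.86, 0.69 and 0.76 on high-fat arrays and 0.74, 0.99 and 0.70 on chow arrays. The diets overlapped, and the highest and the second lowest array were both chow. The log2 difference was -0.04 ± 0.11 (SE; limma adjusted p = 0.930), with an unadjusted 95% interval of -0.30 to 0.23. Its sign was not stable: the dimmer of its 2 probes gave 0.08 ± 0.12 (SE), and with no scaling the difference was 0.33. Its partner strand miR-208a-5p read -1.80, -1.77 and -1.87 on high-fat and -1.58, -1.70 and -1.82 on chow arrays. These overlapped too, with a log2 difference of -0.11 ± 0.10 (SE; limma adjusted p = 0.682). The interval was -0.35 to 0.12, and with no scaling the sign turned, to 0.26. On the dimmer probe of miR-208a-5p, where the diets did not overlap, the log2 difference was -0.19 ± 0.10 (SE).

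miR-499-5p, the brightest of the 5, had an unscaled signal of 10632, 11941 and 14144 on high-fat and 9209, 12818 and 10457 on chow arrays. Scaled, these were 4.68, 4.49 and 4.66 on high-fat and 4.68, 4.92 and 4.80 on chow arrays in log2. High-fat replicate 1 and chow replicate 1 were level, and the other chow arrays lay above all high-fat arrays. The log2 difference was -0.19 ± 0.11 (SE; limma adjusted p = 0.508), with an interval of -0.44 to 0.06. It was -0.07 within slide 1, and 0.18 with no scaling. The dimmer probe gave -0.12 ± 0.11 (SE), with overlap.

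The partner strand miR-499-3p, the dimmest of the 5, had an unscaled signal of 50.6, 65.3 and 72.9 on high-fat and 25.3, 73.2 and 45.7 on chow arrays. Scaled, it read -3.04, -3.02 and -2.94 on high-fat and -3.83, -2.54 and -3.04 on chow arrays in log2. The high-fat arrays lay close together between the lowest and the highest chow array. The log2 difference was 0.13 ± 0.29 (SE; limma adjusted p = 0.898), with an interval of -0.54 to 0.81. It was -0.21 without chow replicate 1, 0.43 without chow replicate 2 and 0.83 within slide 1 (limma adjusted p = 0.212), where chow replicate 1, its lowest array, was the lone chow array. Its SD over chow arrays, 0.65, was exceeded by 6 of 425 miRNAs. Spots of its probes varied by up to 21.6% on 1 array.

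Counted together, 0 of the 5 miRNAs passed the adjusted test in limma, against 0.471% of the 425 tested. 1 of 5, miR-208b-3p, had an unadjusted p below 0.05 (0.0146), against 11.8% of all tested in either direction and 7.53% on the lower side. In 2 of 5, miR-208b-3p and by a margin of 0.001 miR-499-5p, the diets did not overlap, both lower on the high-fat diet. Of all tested, 17.2% did not overlap in either direction and 10.6% were lower without overlap. miR-499-5p overlapped with every other scaling tried, with both normexp settings, in the deposited normalised values, and with the mean over probes or the dimmest probe. The log2 difference was below 0 in 4 of 5, with a median of -0.11, and in 258 of 425, with a median of -0.04 over all tested. With no scaling only miR-208b-3p of the 5 was below 0, and the median of all tested was 0.32.

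**Figure D4:**
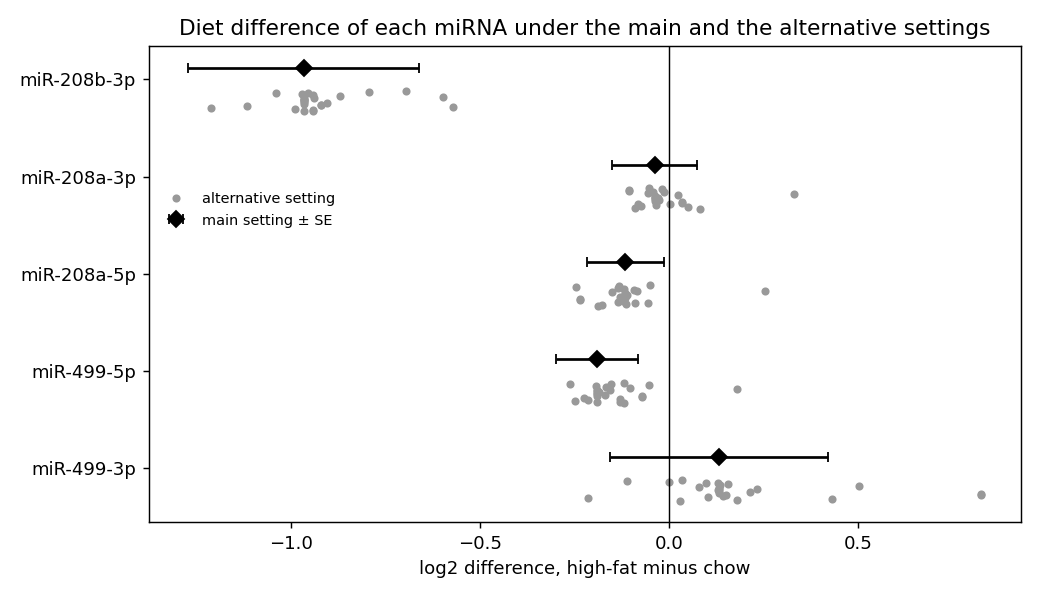
Log2 difference, high-fat minus chow, of each miRNA (horizontal axis) in the setting used in the text (diamond, with SE) and in each of 25 alternative settings (grey points). miR-208b-3p lies between -1.21 and -0.57 in all of them, some of which cannot move the difference. The points of the other miRNAs fall on both sides of 0.

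Ratios of signals on the same array need no scaling between arrays. Only their difference between diets is read here, since the ratio itself also carries the unequal brightness of the probes. The 5 ratios were each compared with a 2-sided exact permutation test over 20 assignments of the arrays, whose smallest possible p is 0.1, so that no ratio could pass 0.05.

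miR-208b-3p, from the beta gene, was set against miR-208a-3p, from its alpha neighbour. Its signal was 29.5%, 15.6% and 36.0% of that of miR-208a-3p on high-fat arrays and 49.3%, 44.3% and 52.1% on chow arrays. Every high-fat array lay below every chow array. The log2 ratio was -1.97 ± 0.63 on the high-fat diet and -1.04 ± 0.12 on chow (SD, n = 3 each; exact permutation p = 0.1, adjusted 0.167), a log2 difference of -0.93. Without high-fat replicate 2 the log2 difference was -0.57. When every other tested miRNA, miR-208b-3p included, was set against miR-208a-3p, 5.19% of 424 were lower on the high-fat diet without overlap. The probes of miR-208a-3p and miR-208b-3p face targets that differ at the 3 bases given above, and how much of either signal came from the other miRNA was not tested.

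Against miR-499-5p, the signal of miR-208b-3p was 2.09%, 1.12% and 2.42% on high-fat arrays and 3.21%, 2.91% and 3.06% on chow arrays. The diets again did not overlap. The log2 ratio was -5.81 ± 0.59 on the high-fat diet and -5.03 ± 0.07 on chow (SD, n = 3 each; exact permutation p = 0.1, adjusted 0.167). The log2 difference was -0.78, and -0.44 without high-fat replicate 2. Of the 424 miRNAs set against miR-499-5p, miR-208b-3p included, 1.18% were lower on the high-fat diet without overlap.

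miR-499-5p over miR-208a-3p was 14.1, 13.9 and 14.9 on high-fat and 15.4, 15.2 and 17.1 on chow arrays. These did not overlap either, although the log2 difference was only -0.15 (exact permutation p = 0.1, adjusted 0.167, n = 3 each). In the authors' deposited normalised values the same log2 difference was 0.05, with the sign turned.

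The strand ratios differed by less than their spread. miR-208a-3p over miR-208a-5p was 6.34, 5.53 and 6.20 on high-fat and 4.99, 6.43 and 5.77 on chow arrays, with overlap (log2 difference 0.08, exact permutation p = 0.7, adjusted 0.7). miR-499-5p over miR-499-3p was 210, 183 and 194 on high-fat and 364, 175 and 229 on chow arrays. Here chow replicate 1 stood above all others, and the rest overlapped (log2 difference -0.32, exact permutation p = 0.5, adjusted 0.625). Without chow replicate 1 the difference was -0.03.

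**Figure D5:**
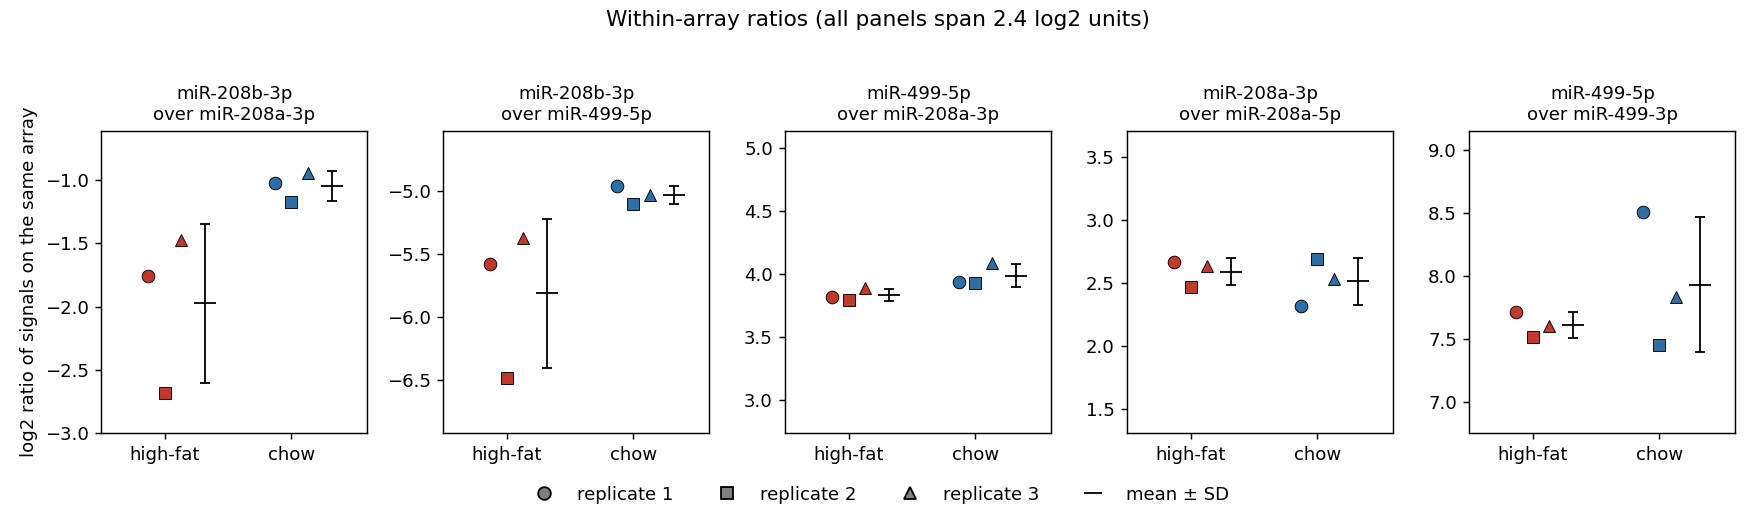
Log2 ratio of signals on the same array for 5 pairs of miRNAs (vertical axes, all of the same height) on the 3 high-fat and 3 chow arrays, with the mean and SD of each diet. miR-208b-3p lies lower on the high-fat diet against both miR-208a-3p (-1.97 against -1.04) and miR-499-5p (-5.81 against -5.03), and the ratios of strands overlap.

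Over the 6 arrays the scaled signals of the 5 miRNAs did not all move together. Pearson's r was 0.86 between miR-208b-3p and miR-499-5p and 0.68 between miR-208a-3p and miR-499-5p. It was 0.39 between miR-208a-3p and miR-208b-3p. The strands of Mir208a gave 0.15 and those of Mir499a 0.39. Strands of 1 hairpin were thus less alike on these arrays than miR-208b-3p and miR-499-5p, whose genes lie on different chromosomes. For both of the latter, high-fat replicate 2 was the lowest array and chow replicate 2 the highest. The strand values involve miR-208a-5p, whose SDs were 0.05 and 0.12, and miR-499-3p, whose spots varied by up to 21.6% on 1 array. The part of noise in these correlations was not tested. Among 420 other tested miRNAs, the ones most like miR-208b-3p were miR-26b-5p (r = 0.94), miR-125a-3p (0.94) and miR-3584-5p (0.93). miR-26b-5p read 4.59, 3.83 and 4.58 on high-fat and 4.66, 4.65 and 4.62 on chow arrays in scaled log2 signal, with high-fat replicate 2 again the lowest. The most like miR-208a-3p were miR-137-3p (0.95), miR-27a-3p (0.94) and miR-101a-3p (0.94). The most like miR-499-5p were miR-212-3p (0.94), miR-301a-3p (0.93) and miR-874-5p (0.92). The most like miR-208a-5p were miR-383-5p (0.98), miR-3120 (0.97) and miR-381-3p (0.96), and miR-499-3p was followed most closely by miR-20a-3p (0.99), miR-29a-5p (0.96) and miR-20b-5p (0.94). With 6 arrays and this many candidates such values describe these arrays, which share diet and brightness.

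The other muscle miRNAs, of the miR-1, miR-133 and miR-206 family with miR-486, were 11 on the list, of which 9 were tested. Of these, 0 passed the adjusted test in limma and 3 had an unadjusted p below 0.05, against 0.471% and 11.8% of all tested. Their median log2 difference was -0.31, against -0.04 over all 425 tested, with 7 below 0 and 2 above, against 258 below and 167 above of all tested. miR-133a-3p, which restrains growth of heart muscle cells in mice, differed by -0.37 ± 0.11 (SE; limma adjusted p = 0.279). miR-133a-5p differed by -0.36 ± 0.09 (limma adjusted p = 0.194), miR-133b-3p by -0.43 ± 0.15 (0.326) and miR-133b-5p by -0.45 ± 0.20 (0.412). miR-1-3p, a miRNA specific to heart and skeletal muscle, differed by -0.22 ± 0.11 (0.452) and miR-1b by -0.31 ± 0.15 (0.438). miR-206-3p, best known from skeletal muscle, differed by 0.07 ± 0.11 (0.836), miR-133c by -0.04 ± 0.17 (0.941) and miR-486 by 0.01 ± 0.14 (0.982). The log2 difference of miR-208b-3p was larger in size than that of each of these 9, and none of the differences between them was tested.

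Of 15 miRNAs linked to cardiac hypertrophy, a growth of the heart in which miR-208b is known to increase in rodents, 14 were tested, 0 passed in limma and 2 had an unadjusted p below 0.05, the last a share near the 11.8% of all tested. The median log2 difference was 0.11, with 8 above 0 and 6 below, against 167 above and 258 below of all tested. The smallest p-values belonged to miR-34a-5p, a target of p53, at 0.63 ± 0.15 (SE; limma adjusted p = 0.192), and miR-21-5p, abundant in cardiac fibroblasts, at 0.27 ± 0.10 (0.409). miR-212-3p (-0.20 ± 0.11, adjusted p = 0.480) and miR-222-3p (0.17 ± 0.12, adjusted p = 0.626) followed.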

How the data were processed

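Agilent Feature Extraction 11.0.1.1, named in the submitters' processing notes and per the file headers, made a processed intensity per spot, background-subtracted and spatially detrended, with no scaling between arrays. The deposited matrix holds log2 values with the same quartiles in every column, and how the authors made them is not given in the sources used here. Outlier spots (9.07% to 9.42%) and control spots were left out. Spots of a probe were averaged, and a probe counted as well above background on an array when at least 50% of its spots were. Signals were divided by each array's 75th percentile, set to a floor (log2 of -5.82) where lower, and log2-transformed. The brightest probe stood for a miRNA, and 425 miRNAs well above background on at least 3 arrays were tested with limma 3.58.1 in R 4.3.3 (lmFit, eBayes, Benjamini-Hochberg, threshold 0.05, no covariate), a fit also tested on simulated data. Single probes were fitted the same way. Precision is limited by having 3 arrays for each diet.

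The miRNAs and lists were chosen with earlier results of these data known. Named besides the 5 were the 3 miRNAs most correlated with each, all tested other muscle miRNAs, and the 4 hypertrophy miRNAs of smallest p. miR-190a-3p and miR-190a-5p were named after their values were seen. Replicate numbers do not pair the samples: same-numbered arrays correlated at 0.22, -0.01 and 0.05 in their deviations. Marker lists not described in the report gave these ranges of summed scaled signal: endothelial 61.9 to 73.1 on high-fat and 68.8 to 72.3 on chow arrays, smooth muscle 52.7 to 58.3 on high-fat and 52.3 to 55.8 on chow, fibroblast 20.7 to 22.1 on high-fat and 19.5 to 21.1 on chow, immune 22.7 to 23.7 on high-fat and 21.4 to 22.4 on chow, epithelial 0.462 to 0.473 on high-fat and 0.157 to 0.495 on chow, neuronal 0.397 to 0.521 on high-fat and 0.433 to 0.590 on chow. Of the 5 epithelial markers, 2 were tested, and both were higher on every high-fat array than on any chow array. miR-141-3p, 1 of the 2 miRNAs called, was higher by a log2 difference of 1.71 (limma adjusted p = 0.0426). miR-200c-3p, well above background on 4 arrays, was higher by 1.27 (0.224). Not tested were miR-200a-3p and miR-200b-3p, each well above background on 1 array, and miR-429, on 0. The summed signal of all 5 overlapped between the diets, and its highest value was on a chow array. Alternatives covered background correction, signal column, scaling, probes, filters, floor, variance model, blocks and samples.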

Additional observations from a re-analysis of the deposited data

How the results depend on the processing

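The log2 difference of miR-208b-3p was below 0 in each of 25 alternatives, from -1.21 to -0.57, with limma adjusted p from 0.0400 to 0.812. These 25 are not separate checks of that difference. Changes of filter, floor, intensity trend or replicate block could not move it from -0.97. Slide as a block and slide 1 alone are the same contrast, at -0.92. Normexp background correction with the 75th percentile gave -0.79 for miR-208b-3p (adjusted p = 0.0400), -0.11 for miR-499-3p and 8 miRNAs called, against 2. With no scaling the differences of miR-208a-3p, miR-208a-5p and miR-499-5p were 0.33, 0.26 and 0.18, and 5 miRNAs were called. miR-208a-3p was at 0.023 with the mean over probes, 0.034 with slide as a block or within slide 1, and 0.084 with the dimmest probe, an alternative chosen after seeing the data. The count called was 0 with quantile normalisation, the deposited matrix, no filter, a floor 4 times higher, slide as a block and slide 1 alone, 1 with the dimmest probe and 4 with an intensity trend. miR-499-5p over miR-208a-3p differed by -0.065 with normexp and quantile normalisation and by 0.052 in the deposited matrix. miR-208a-3p over miR-208a-5p differed by 0.27 within slide 1 and by 0.27 with the dimmest probe, and miR-499-5p over miR-499-3p by -0.90 within slide 1. The causes were not tested. The replicate number as a block does not pair the samples and cannot change a log2 difference, since each number occurs once in each diet. With it the limma adjusted p of miR-208b-3p was 0.233 and 3 miRNAs were called. Not every array correlated best with its own number. Leaving out 1 array at a time gave -0.089 to 0.051 for miR-208a-3p, -0.18 to -0.05 for miR-208a-5p, -1.21 to -0.57 for miR-208b-3p, -0.25 to -0.13 for miR-499-5p and -0.21 to 0.43 for miR-499-3p. It gave counts of 0 to 3, with 0 called without high-fat replicate 2, high-fat replicate 3, chow replicate 2 or chow replicate 3, and 1 without high-fat replicate 1. The ratios ranged from -1.18 to -0.57 (miR-208b-3p over miR-208a-3p), -0.997 to -0.44 (miR-208b-3p over miR-499-5p), -0.18 to -0.10 (miR-499-5p over miR-208a-3p), -0.02 to 0.16 (miR-208a-3p over miR-208a-5p) and -0.56 to -0.03 (miR-499-5p over miR-499-3p).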
